A study of Mus musculus with 12 samples.

Results

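The viewpoint examined here is the Tdgf1-Lrrc2-SE fragment, a putative super-enhancer between the divergently transcribed genes Tdgf1 and Lrrc2 on mouse chromosome 9. Tri-C cuts crosslinked chromatin with the enzyme DpnII, joins the ends by ligation and pulls down fragments that hold a viewpoint with a biotinylated oligonucleotide. Each read that joins the viewpoint to at least 2 further fragments of the same chromosome, called reporters, then records a three-way contact. The members were the pairs of reporter fragments whose midpoints both lay within 1 Mb of the start of the capture oligo. These were 2777 of the 5351 fragment pairs listed for the viewpoint, holding 3955 of its 6909 counts, and 2777 of the 159167 pairs (3955 of 241872 counts) in all 46 tables of the series. A count is the number of times a fragment pair was seen with the viewpoint.

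The mouse embryonic stem cell line J1 was studied either in the naive state (day 0, serum-free medium with the 2i inhibitors and leukemia inhibitory factor) or in the primed state (day 7, the same basal medium without both and with Fgf2 and Activin A). Each state had 3 biological replicates captured with oligo pool 1, and these were treated as pooled, since a table does not say which replicate a count came from. The naive table held 1446 local pairs with 2166 counts, and 1331 local pairs with 1789 counts were listed for primed cells. Intervals below are 95% intervals of the counting error only. No test across replicates was possible, the 2 states come from separate libraries, and an effect of the library and an effect of the state cannot be told apart. A share of counts is an average over many cells, so contacts made by more cells and contacts made more often in each cell cannot be told apart either.

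Enhancers are stretches of DNA that bind transcription factors and raise the transcription of genes that may lie far away, and a super-enhancer is a cluster of them. Tdgf1 encodes Cripto, a membrane-anchored co-receptor of the Nodal pathway that is transcribed in pluripotent cells. Lrrc2 encodes a leucine-rich repeat protein known mainly from heart and skeletal muscle. Naive and primed cells represent the pluripotent epiblast before and after implantation, and the switch between them is known to go with a change of the enhancers in use. Whether this stretch carried the marks of a super-enhancer could not be read from contact counts, and the name is that of the study.

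The oligo covers 100 bases at chr9:110947635-110947734 (mm10) and lies in no annotated gene. The start of Tdgf1, which is read from the minus strand (chr9:110939608-110946158), lies 1.48 kb upstream, and the start of Lrrc2, read from the plus strand (chr9:110951545-110984066), lies 3.91 kb downstream. Upstream and downstream here follow the chromosome's coordinates. The oligo and the 250 bases before the starts of the 2 flanking genes are printed to show the captured stretch and the starts closest to it. The promoter sequences are from RefSeq (GRCm38.p6), 5′ to 3′ on the strand of the gene, and capitals mark GGGCGTGG, a GC-rich motif of the Krüppel-like factors. GATC, the DpnII site, was searched as well, and each motif was searched on both strands of the 2 promoter sequences.
Oligo, chr9:110947635-110947734, plus strand: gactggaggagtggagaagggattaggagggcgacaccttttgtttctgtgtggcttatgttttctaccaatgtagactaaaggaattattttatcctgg
Tdgf1, chr9:110946159-110946408, minus strand: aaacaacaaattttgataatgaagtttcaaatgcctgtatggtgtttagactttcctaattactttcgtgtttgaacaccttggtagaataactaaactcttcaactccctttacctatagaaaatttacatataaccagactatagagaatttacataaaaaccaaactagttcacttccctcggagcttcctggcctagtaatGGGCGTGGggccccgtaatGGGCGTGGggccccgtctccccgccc
Lrrc2, chr9:110951295-110951544, plus strand: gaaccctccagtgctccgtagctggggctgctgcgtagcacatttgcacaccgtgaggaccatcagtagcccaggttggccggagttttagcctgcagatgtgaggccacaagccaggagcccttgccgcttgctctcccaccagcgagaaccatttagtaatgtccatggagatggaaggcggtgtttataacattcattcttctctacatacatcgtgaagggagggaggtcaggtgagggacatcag

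Neither flanking promoter holds a DpnII site, and each lay whole within 1 fragment. The Tdgf1 start lies in a fragment of 426 bases (chr9:110946040-110946465) and the Lrrc2 start in a fragment of 1062 bases (chr9:110950857-110951918). GATC occurs in 48.0% of the 32851 RefSeq promoter windows, which run from 250 bases before to 50 bases after a gene start. The Tdgf1 promoter holds GGGCGTGG 2 times, in a short tandem repeat next to the start, while 5.33% of all promoter windows hold it at least 1 time. The octamer ATGCAAAT, the binding sequence of Oct factors, was in none of the printed stretches and is in 1.74% of all windows. A match of letters shows no binding.

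The farther reporter of a count lay between 900 and 1000 kb from the oligo in 28 naive and 19 primed counts, and between 1000 and 1100 kb, just outside the window, in 34 naive and 19 primed counts. Local pairs made up 60.8% (59.2 to 62.5) of the 3560 naive counts of the viewpoint and 53.4% (51.7 to 55.1) of the 3349 primed counts, a naive to primed ratio of 1.14 (1.07 to 1.21). The 10 kb bin of the oligo took part in 29.5% of the naive and 24.4% of the primed local counts, a ratio of 1.21 (1.07 to 1.37). With all counts touching that bin left out, the ratio of the local share was 1.14 (1.06 to 1.23).

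Few fragment pairs recurred. The 2 states shared 187 pairs, which is 12.9% of the naive and 14.0% of the primed pairs. Pairs with a single count made up 80.8% of the naive and 82.2% of the primed pairs. In 35.2% of the naive and 34.4% of the primed local counts the 2 reporters were neighbours on the chromosome, separated only by the 4 bases of the cut site, and a site left uncut cannot be told apart from ends that were joined again. Many of the values below were therefore also computed with each distinct pair taken once or without such neighbours.

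Counts with both reporters in the viewpoint bin, or with 1 of them there, were left out of what follows unless stated, leaving 1528 naive and 1352 primed counts. That bin, chr9:110940001-110950000, reaches farther upstream of the oligo than downstream. It takes out most of Tdgf1 but none of Lrrc2, so the 2 sides cover unlike distances near the oligo. The side of the viewpoint on which the pairs lay differed between the states. In naive cells 57.8% (55.3 to 60.3) of counts had both reporters downstream of the oligo, on the Lrrc2 side, against 44.0% (41.3 to 46.7) in primed cells, a ratio of 1.31 (1.18 to 1.46). Both reporters lay upstream, on the Tdgf1 and Als2cl side, in 26.7% (24.5 to 29.0) of naive and 40.2% (37.5 to 42.8) of primed counts, a ratio of 0.665 (0.583 to 0.757). With each distinct pair taken once these ratios were 1.26 (1.10 to 1.44) and 0.722 (0.622 to 0.837), and without neighbouring fragments 1.36 (1.18 to 1.58) and 0.608 (0.506 to 0.730).

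The share of counts that joined a reporter on either side of the viewpoint did not move in the same way. It was 15.5% (13.7 to 17.4) of naive and 15.8% (13.9 to 17.9) of primed counts, and the ratio was 0.980 (0.811 to 1.18). Had the reporters of each side been paired at random, 690 naive and 675 primed counts would have straddled the oligo. The observed 237 and 214 were 0.343 (0.304 to 0.386) and 0.317 (0.279 to 0.358) times these numbers. Part of this shortfall is fixed by the neighbouring fragments, which cannot lie on either side of the viewpoint bin. Without them the values rose to 0.576 (0.514 to 0.642) in naive and 0.516 (0.457 to 0.578) in primed cells, so that straddling pairs were still fewer than under random pairing.

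**Figure D1:**
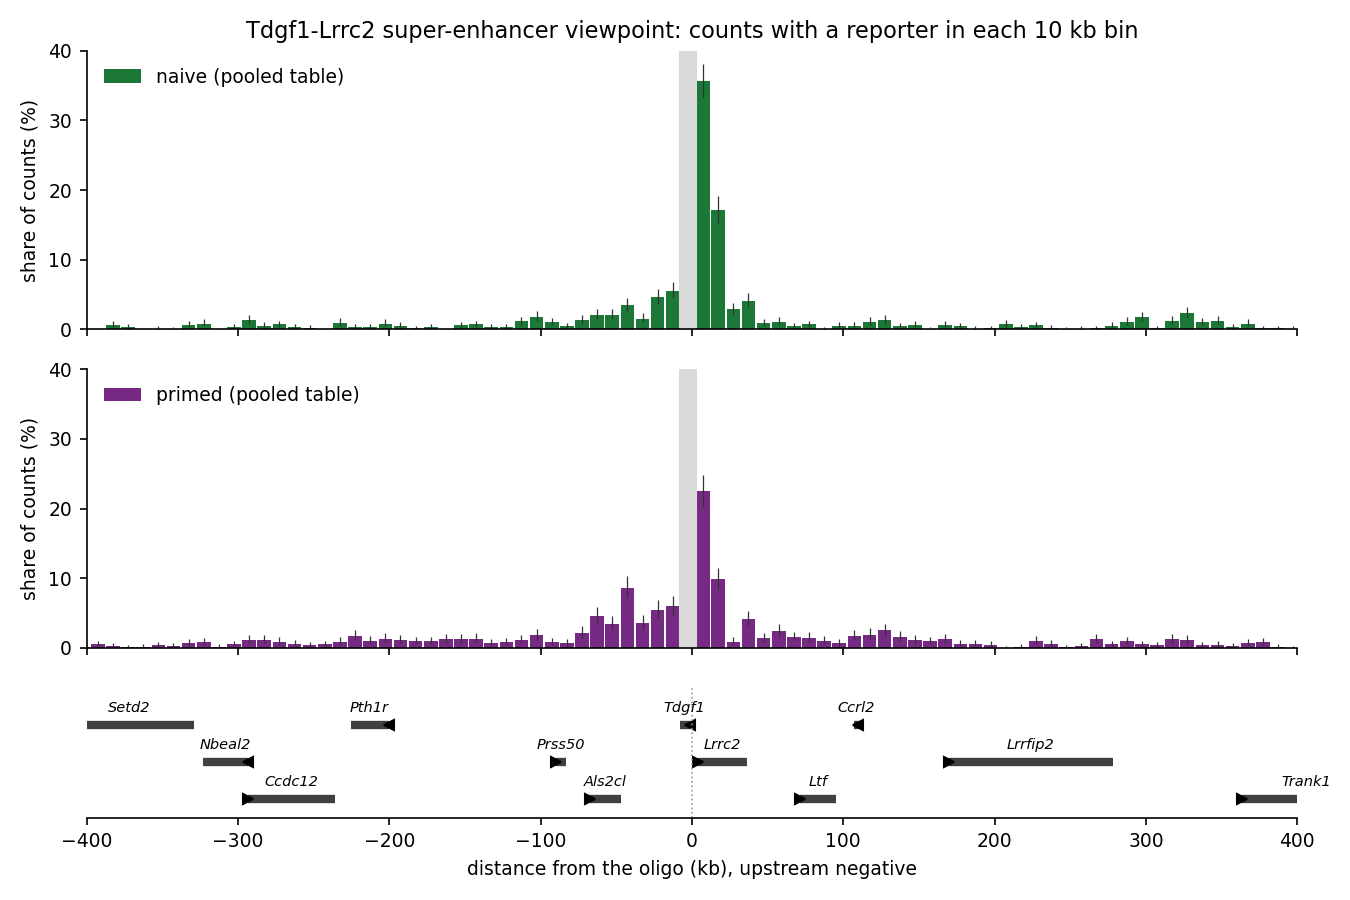
Share of the local counts outside the viewpoint bin (y axis, percent) that had a reporter in each 10 kb bin, by distance of the bin from the oligo (x axis, kb), in naive (top) and primed (bottom) cells. Bars are the pooled tables, lines are 95% counting intervals, the grey band is the viewpoint bin, and the lowest panel draws selected genes with an arrowhead at the start. The first bin downstream reached 35.6% in naive and 22.5% in primed cells, while the bin between Als2cl and Fam240a at -42.6 kb stood at 3.53% and 8.65%.

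Of the 2 flanking genes, Lrrc2 held more counts in both states, and its share was larger in naive cells. Lrrc2 is much longer than Tdgf1 and begins close to the oligo, and the shares were not scaled for length or distance. Over all local counts, a reporter lay within the Lrrc2 gene in 916 of 2166 naive counts (42.3%, 40.2 to 44.4) and in 473 of 1789 primed counts (26.4%, 24.4 to 28.5), a ratio of 1.60 (1.43 to 1.79). With the gene divided into 3 parts of equal length, the part at the start held most of these, with 715 naive and 353 primed counts (ratio 1.67, 1.47 to 1.91). The middle part had 204 and 112 counts (interval of the ratio 1.19 to 1.91) and the last part 67 and 32 (1.73, 1.12 to 2.72), so all 3 parts were higher in naive cells. The fragment of the Lrrc2 start itself was less clear. It had 41 naive and 25 primed counts and a ratio of 1.35 with an interval that included 1 (0.804 to 2.32).

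Tdgf1 held a similar share in the 2 states. A reporter lay within the gene in 227 naive counts (10.5%, 9.22 to 11.8) and 178 primed counts (9.95%, 8.60 to 11.4), a ratio of 1.05 (0.862 to 1.29). Its start fragment had, like that of Lrrc2, 41 naive and 25 primed counts. The combination of the 2 genes was seen more often in naive cells. Counts with 1 reporter in Tdgf1 and the other in Lrrc2, that is three-way contacts of the viewpoint with both flanking genes, numbered 56 in naive and 16 in primed cells. They were 2.59% (1.96 to 3.34) of naive and 0.894% (0.512 to 1.45) of primed local counts, a ratio of 2.89 (1.63 to 5.40), and 3.22 (1.75 to 6.32) with each distinct pair taken once. Since the share of Lrrc2 alone was also higher in naive cells, this ratio does not separate the combination from the single genes. The combination of the 2 genes was not itself set against random pairing of the reporters. The stretch between Fam240a and the viewpoint bin lies on the Tdgf1 side but holds only the last bases of that gene. It was joined to the Lrrc2 region beyond that bin in 47 naive and 28 primed counts (1.49, 0.911 to 2.46). These were 0.517 (0.380 to 0.687) and 0.489 (0.325 to 0.707) times the numbers under random pairing, values that do not describe Tdgf1.

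**Figure D2:**
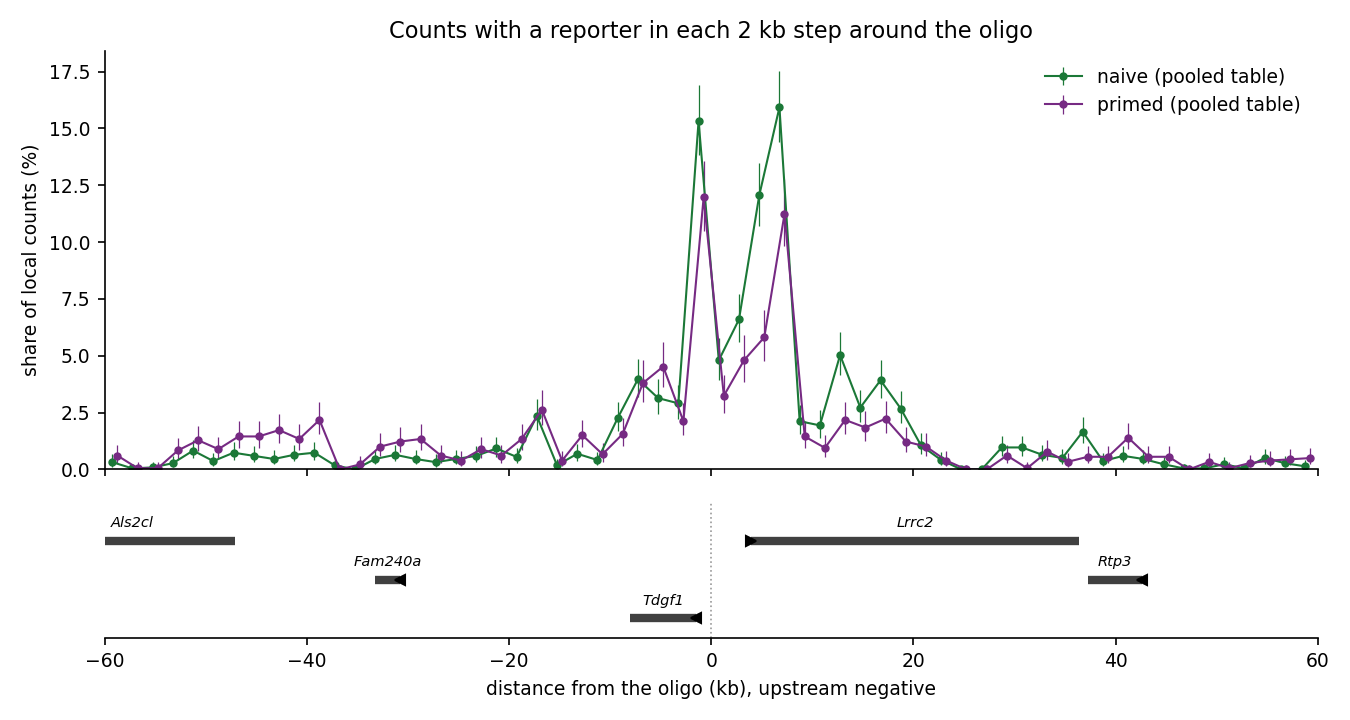
Share of all local counts (y axis, percent) with a reporter in each 2 kb step within 60 kb of the oligo (x axis, kb) in naive and primed cells. Points are the pooled tables, lines 95% counting intervals, and the lower panel draws genes with an arrowhead at the start. The step centred 5 kb downstream, in the first part of Lrrc2, had 261 naive and 104 primed counts, and the step 13 kb downstream 109 and 39.

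In steps of 2 kb, the naive excess over Lrrc2 was not even. It was 2.07 times (1.65 to 2.63) in the step centred 5 kb from the oligo, 1.42 times (1.19 to 1.70) in the step with the most counts at 7 kb (345 naive and 201 primed counts), 2.31 times (1.59 to 3.42) at 13 kb and 2.18 times (1.31 to 3.74) at 19 kb. At 21 kb it was 1.06 (0.545 to 2.08). The highest ratio in the gene was that of the step at 31 kb, which had only 21 naive and 1 primed counts (17.3, 2.79 to 717). On the Tdgf1 side the step 5 kb upstream, inside the gene, was lower in naive cells, with 68 naive and 81 primed counts (0.693, 0.495 to 0.969), while the step at 7 kb upstream had 86 and 68 (1.04, 0.751 to 1.46) and the step at 3 kb upstream 63 and 38 (1.37, 0.901 to 2.11). The step at 1 kb upstream, which holds the Tdgf1 start and the fragments next to the oligo, was higher in naive cells, with 332 and 214 counts (1.28, 1.08 to 1.53). These steps were chosen after the contact profile was drawn.

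The most frequent single fragment pairs lay next to the oligo and in the first part of Lrrc2. Of the 10 pairs with the highest counts, all 10 lay within 20 kb of the oligo and 8 were neighbouring fragments. The pair next to the viewpoint on the Tdgf1 side, chr9:110947052-110947166 with chr9:110947171-110947261, had 31 naive and 21 primed counts. Within the first part of Lrrc2, chr9:110953603-110953662 with chr9:110953667-110953732 had 28 and 10 counts. Another pair of Lrrc2, chr9:110954792-110955030 with chr9:110955035-110955093, was the exception with 11 naive and 17 primed counts.

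Of the 200 bins of 10 kb around the viewpoint bin, 45 held at least 20 counts and were compared. A bin was called where the interval of the ratio excluded 1. This was so for 6 bins higher in naive cells, 13.3% of the bins tested, and for 11 bins higher in primed cells, 24.4% of the bins tested. The median ratio over the 45 bins was 0.639. Of the calls, 5 naive and 6 primed ones also held both with each distinct pair taken once and without neighbouring fragments. Shares within 1 table are tied to each other, so that a larger share at Lrrc2 lowers all the others. The totals of the 2 tables were close (3560 and 3349 counts), and the counts themselves are therefore given beside the shares.

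**Figure D3:**
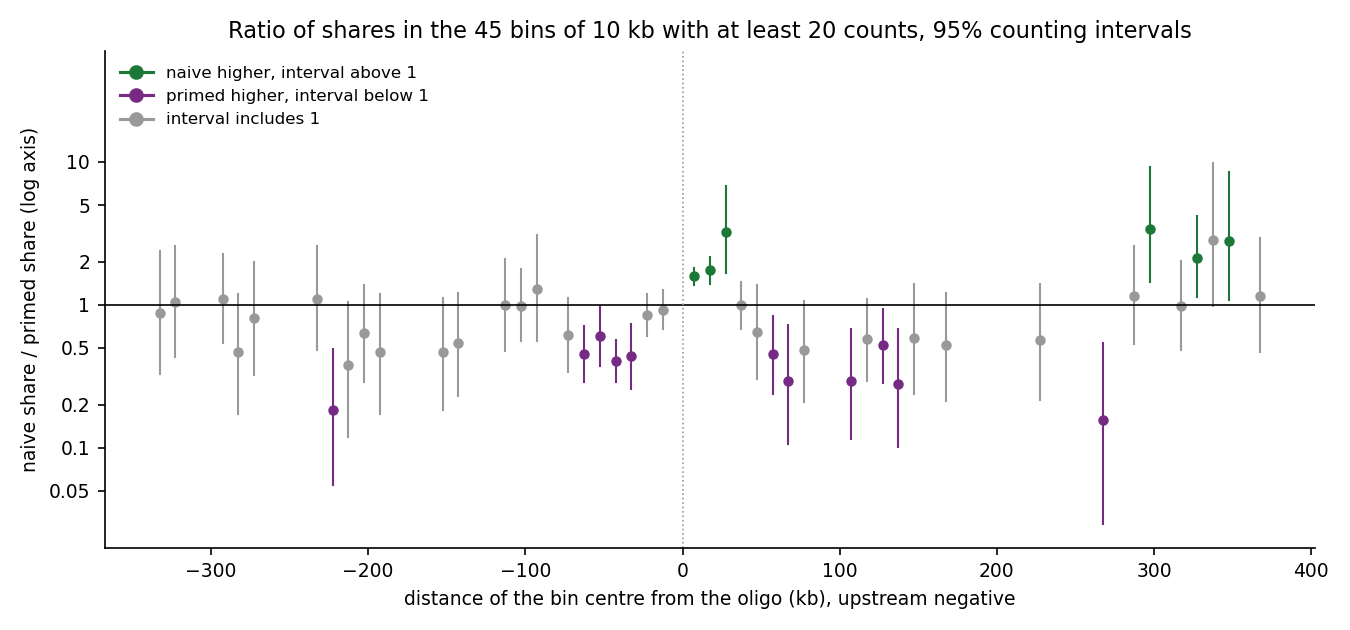
Naive share divided by primed share (y axis, log scale) in the 45 bins of 10 kb with at least 20 counts, by distance of the bin centre from the oligo (x axis, kb). Points are ratios, lines 95% counting intervals, and colours mark whether the interval lies above 1, below 1 or includes 1. Of the 6 bins above 1, the 3 nearest to the oligo lie in Lrrc2, and 10 of the 11 bins below 1 have their centres between -223 and 137 kb.

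Lrrc2 held the naive bins nearest to the viewpoint. The 3 bins next to the viewpoint on the Lrrc2 side had 544 naive and 304 primed counts (chr9:110950001-110960000, ratio 1.58, 1.37 to 1.83), 262 and 133 counts (chr9:110960001-110970000, 1.74, 1.41 to 2.16) and 44 and 12 counts (chr9:110970001-110980000, 3.24, 1.68 to 6.75). In the last of these the ratio was 1.68 over the middle 5 kb alone, with an interval that included 1. The next bin, chr9:110980001-110990000, with the end of Lrrc2 and part of Rtp3, had 63 and 56 counts and a ratio of 0.995 (0.683 to 1.45). This bin was mixed. The 2 kb step at 37 kb, over the last bases of Lrrc2 and the end of Rtp3, had 36 naive and 10 primed counts (2.97, 1.45 to 6.72). The step at 41 kb, in Rtp3, had 13 and 25 (0.429, 0.202 to 0.872). These steps do not separate the 2 genes.

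Far downstream of Lrrc2, the bin at chr9:111290001-111300000, in which no gene is annotated, was also higher in naive cells. It had 19 and 6 counts (2.80, 1.08 to 8.57), and its middle 5 kb had 5 and 3 (1.47, 0.287 to 9.50).

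The primed bins lay on both sides of the viewpoint, beyond Tdgf1 and beyond Lrrc2. Upstream, 4 neighbouring bins over Tmie, Als2cl and Fam240a were higher in primed cells. The bin of the starts of Tmie, a protein of the mechanotransduction machinery of inner ear hair cells, and Als2cl had 32 naive and 62 primed counts (0.457, 0.288 to 0.711). The largest of the 4, chr9:110900001-110910000, which holds the last bases of Als2cl and mainly the stretch between it and Fam240a, had 54 and 117 counts (0.408, 0.290 to 0.568). The bin within Als2cl had 32 and 47 counts (0.602, 0.372 to 0.964; each distinct pair once 0.757, 0.445 to 1.28). The bin of the Fam240a start had 24 and 48 counts (0.442, 0.259 to 0.737; each distinct pair once 0.573, 0.312 to 1.02). The bins between Fam240a and the viewpoint were not called: chr9:110920001-110930000 had 71 and 74 counts (0.849, 0.604 to 1.19; over 20 kb with the same centre 0.689, 0.536 to 0.884) and chr9:110930001-110940000, with the end of Tdgf1, 85 and 81 (0.929, 0.677 to 1.27). The middle 5 kb of the latter alone had 22 and 36 counts and was higher in primed cells (0.541, 0.303 to 0.944).

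Downstream, the primed bins nearest to the viewpoint were those of Ltf and Ccrl2 and other stretches between Rtp3 and Lrrfip2. The bin of the start of Ltf, which encodes the iron-binding milk and neutrophil protein lactoferrin, had 7 naive and 21 primed counts (0.295, 0.106 to 0.720; each distinct pair once 0.401, 0.141 to 1.02). The bin of the start of Ccrl2, an atypical chemokine receptor, had 8 and 24 counts (0.295, 0.115 to 0.679), and that ratio became 0.787 (0.375 to 1.63) when the bin was moved by 5 kb. Another 3 bins between Rtp3 and Lrrfip2 in which no protein-coding gene is annotated had 17 naive and 33 primed counts (0.456, 0.238 to 0.842; with 1 more bin left out on each side of the viewpoint bin 0.610, 0.308 to 1.17), 20 and 34 (0.520, 0.284 to 0.930; each distinct pair once 0.779, 0.410 to 1.46) and 7 and 22 (0.282, 0.102 to 0.682). The bin of the start of Rtp3, a receptor transporting protein of the liver, had 14 and 19 counts and was not called (0.652, 0.302 to 1.37), while a region of 20 kb with the same centre was (0.660, 0.448 to 0.967). More distant bins were called as well, with 5 naive and 24 primed counts in Pth1r, the parathyroid hormone receptor (0.184, 0.0549 to 0.493), and 3 and 17 counts in Lrrfip2 (0.156, 0.0293 to 0.540), the lowest ratio of all tested bins. The latter call was lost without neighbouring fragments (0.276, 0.0488 to 1.07) and when the bin was moved by 5 kb, which left 5 and 8 counts (0.553, 0.142 to 1.92).

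The starts of 35 protein-coding genes lie in the window. Of 15 tissue-restricted genes, all 15 starts lie in the window and 11 fall in 10 bins with at least 20 counts. Of these, 0 were higher in naive cells and 4 (Tmie, Als2cl, Ltf and Ccrl2, the first 2 in the same bin) were higher in primed cells, with a median ratio of 0.639, the same as over all 45 bins tested. Shares of 13.3% and 24.4% of all tested bins were called in the 2 directions, and with so few bins the list is a description only.

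**Figure D4:**
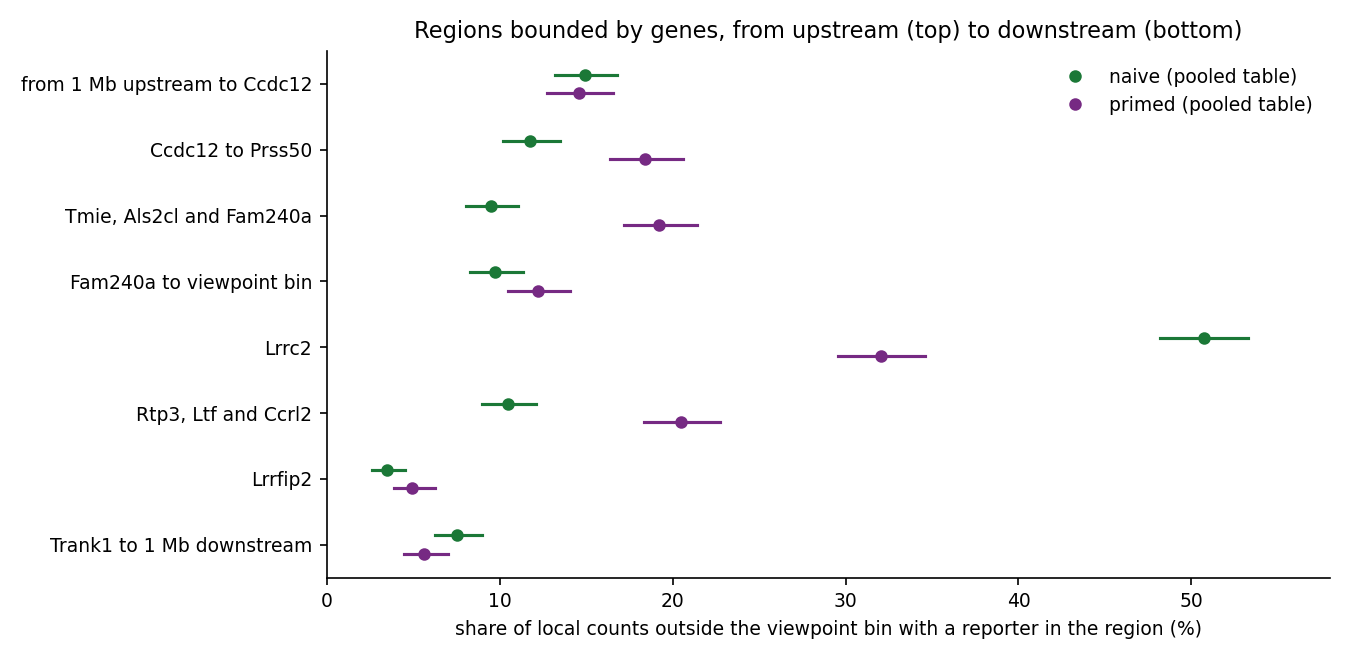
Share of the local counts outside the viewpoint bin (x axis, percent) with a reporter in each of 8 regions bounded by gene starts and ends (y axis, upstream to downstream). Points are the pooled tables and lines 95% counting intervals. Lrrc2 stands at 50.7% in naive and 32.0% in primed cells, and the regions on either side of it stand at 9.75% and 12.2% (Fam240a to the viewpoint bin) and 10.5% and 20.5% (Rtp3, Ltf and Ccrl2).

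The same order appeared when the window was divided at gene boundaries into regions, a division chosen after the bins had been seen. The region from Tmie to Fam240a (chr9:110865687-110916898) had a reporter in 145 naive and 260 primed counts, or 9.49% and 19.2% (0.493, 0.400 to 0.607). The region from the end of Lrrc2 to the start of Lrrfip2, with Rtp3, Ltf and Ccrl2 (chr9:110984067-111117545), had 160 and 277 counts (0.511, 0.418 to 0.623). The region from Ccdc12, which encodes a spliceosome-associated protein, to Prss50, with Pth1r, the cardiac myosin light chain Myl3 and a cluster of serine protease genes (chr9:110654308-110865686), had 180 and 249 counts (0.640, 0.525 to 0.778).

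To see the distant regions apart from the contacts close to the viewpoint, only counts with no reporter within 50 kb of the oligo were taken, 547 naive and 619 primed ones. The region with Rtp3, Ltf and Ccrl2 then took 66 and 157 counts (0.476, 0.351 to 0.638), and the region from Ccdc12 to Prss50 110 and 190 (0.655, 0.513 to 0.833). The region from the upstream end of the window to Ccdc12, level over all counts with 228 and 197 (1.02, 0.843 to 1.25), had 176 and 159 of these and an interval just above 1 (1.25, 1.01 to 1.56). The region from Trank1 to the end of the window, which over all counts had 115 naive and 76 primed counts and an interval that included 1 (1.34, 0.993 to 1.81; each distinct pair once 1.47, 1.07 to 2.04), had 96 and 58 of these (1.87, 1.34 to 2.64). The part of the region from Tmie to Fam240a beyond 50 kb had 45 and 74 counts and an interval that included 1 (0.688, 0.464 to 1.01).

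By distance, the 20 kb downstream of the oligo had a reporter in 47.8% of naive and 29.6% of primed counts (1.62, 1.43 to 1.83). Between 50 and 100 kb downstream the shares were 2.81% and 6.66% (0.423, 0.287 to 0.614), between 100 and 200 kb 5.50% and 11.2% (0.492, 0.372 to 0.647), and between 500 and 1000 kb, with 83 naive and 29 primed counts, 5.43% and 2.14% (2.53, 1.64 to 4.01). Upstream the shares were 7.85% and 15.1% from 20 to 50 kb (0.520, 0.412 to 0.655), 6.94% and 11.1% from 50 to 100 kb (0.625, 0.483 to 0.807) and 5.17% and 9.54% from 100 to 200 kb (0.542, 0.404 to 0.722). Primed cells therefore had the larger share from 20 to 200 kb upstream and from 50 to 200 kb downstream. The intervals of the other bands included 1. These were upstream within 20 kb (0.823, 0.626 to 1.08), from 200 to 500 kb (0.822, 0.668 to 1.01) and from 500 to 1000 kb (1.03, 0.785 to 1.35), and downstream from 20 to 50 kb (1.17, 0.893 to 1.52) and from 200 to 500 kb (1.11, 0.896 to 1.38).

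Of the pairs of 10 kb bins, 16 held at least 20 counts, 11 of them with both reporters in the same bin. 4 of the 16 (25%) were higher in naive and 4 (25%) higher in primed cells. All 4 naive pairs lay within Lrrc2. Both reporters fell in the bin of the Lrrc2 start in 308 naive and 164 primed counts (1.66, 1.37 to 2.02), and in this bin and the next in 58 and 22 counts (2.33, 1.41 to 4.00; with both moved by 5 kb 1.42, 0.604 to 3.49). The bins chr9:110960001-110970000 and chr9:110970001-110980000 were joined by 17 naive and 3 primed counts (5.01, 1.45 to 26.7). Both reporters fell in chr9:110960001-110970000 in 115 and 45 counts (2.26, 1.59 to 3.27). With each distinct pair taken once the intervals of the latter 2 included 1 (3.41, 0.649 to 33.6, and 1.56, 0.967 to 2.55). The bin of the Lrrc2 start was joined to chr9:110980001-110990000 by 12 and 9 counts (1.18, 0.456 to 3.17) and to chr9:110930001-110940000, on the Tdgf1 side, by 16 and 9 (1.57, 0.655 to 4.04; over 20 kb with the same centres 2.21, 1.21 to 4.23). The 4 primed pairs each had both reporters in 1 bin, as in chr9:110900001-110910000 with 37 naive and 56 primed counts (0.585, 0.375 to 0.901), and 0 of the 4 were called with each distinct pair taken once.

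**Figure D5:**
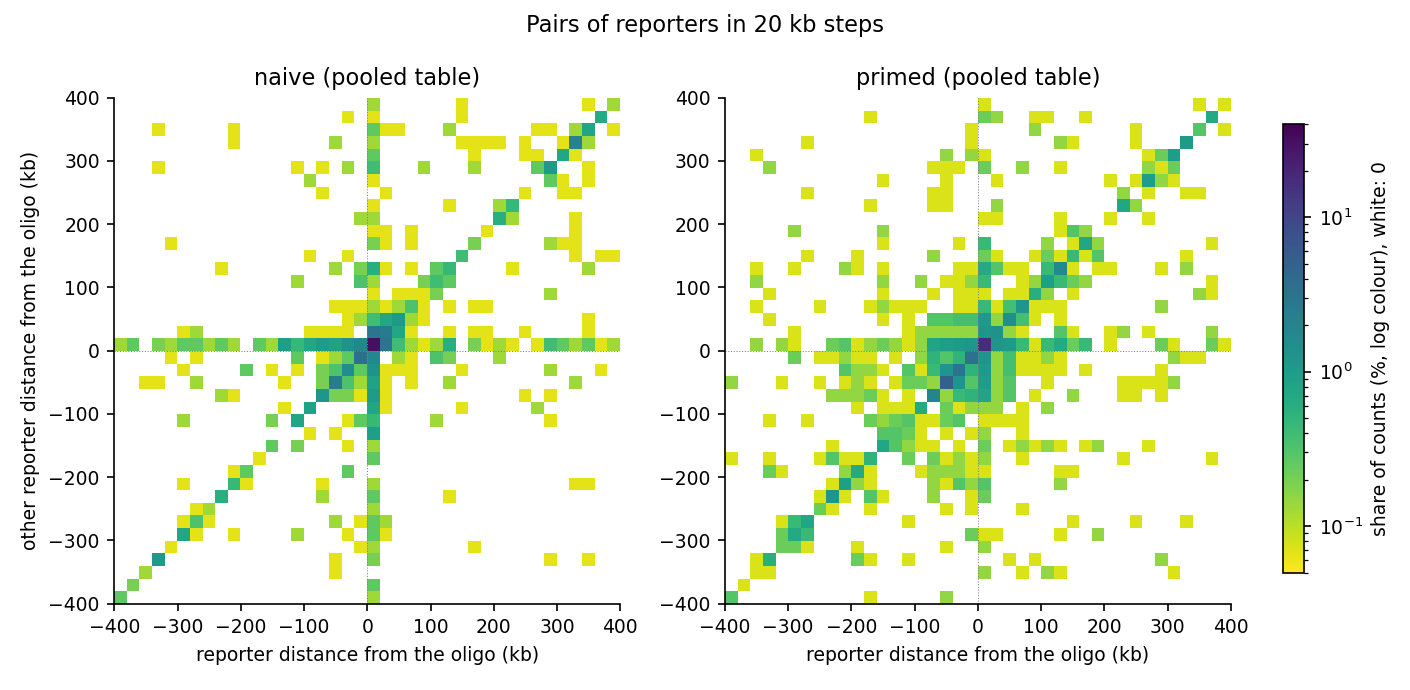
Pairs of reporters by their distances from the oligo (both axes, kb, steps of 20 kb) in naive (left) and primed (right) cells, within 400 kb and without the viewpoint bin. Colour is the share of the local counts outside that bin (percent, log scale), white is 0, and each map is mirrored along its diagonal. The naive map shows a stripe that joins the step from 0 to 20 kb downstream to the steps upstream of the oligo, and the primed map a filled square within about 100 kb of the oligo.

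The maps of reporter pairs differed in form. Of the counts whose reporters lay over 50 kb apart, 363 in naive and 389 in primed cells, a reporter in the 20 kb of Lrrc2 next to the viewpoint bin (chr9:110950001-110970000) was present in 171 naive counts (47.1%, 41.9 to 52.4) and 125 primed counts (32.1%, 27.5 to 37.0), a ratio of 1.47 (1.16 to 1.86). Partners upstream of the oligo were joined to these 20 kb in 114 naive and 70 primed counts (1.75, 1.28 to 2.39). Partners downstream were joined to them in 57 and 55 counts, with an interval that included 1 (1.11, 0.753 to 1.64). The 2 intervals overlap, and the difference between the sides was not tested. Over 100 kb apart with each distinct pair taken once, the ratios were 1.62 (1.08 to 2.44) for partners upstream and 1.47 (0.939 to 2.32) for partners downstream. Counts with both reporters within 150 kb of the oligo and none in these 20 kb numbered 30 in naive cells (8.26%) against 68 in primed cells (17.5%), and their ratio was 0.473 (0.297 to 0.737). The 20 kb on the other side of the viewpoint bin (chr9:110920001-110940000) did not gain a naive stripe, with 28 naive and 56 primed counts (0.536, 0.328 to 0.858). This upstream stretch begins farther from the oligo than the 20 kb of Lrrc2. With each distinct pair taken once the ratios were 1.52 (1.18 to 1.97) for the 20 kb of Lrrc2, 0.461 (0.284 to 0.730) for counts without them and 0.560 (0.337 to 0.911) for the upstream stretch. Over all counts with reporters more than 20 kb apart the first 2 ratios were 1.48 (1.21 to 1.82) and 0.453 (0.310 to 0.652), and the upstream stretch, with 63 and 82 counts, had an interval that included 1 (0.602 to 1.20). These classes were chosen after the maps had been drawn.

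Joint contacts of the gene-bounded regions were compared as well. Lrrc2 was joined to the region from Ccdc12 to Prss50 in 56 naive and 20 primed counts (2.48, 1.46 to 4.36). In primed cells Lrrc2 was joined more often to its downstream neighbours Rtp3, Ltf and Ccrl2, with 38 naive and 60 primed counts (0.560, 0.363 to 0.855). Of 36 pairs of regions, 2 (5.56%) were called higher in naive and 7 (19.4%) in primed cells, and 8 of these calls also held with each distinct pair taken once. Of the 28 pairs without Lrrc2, 6 were higher in primed and 0 in naive cells. The region from Tmie to Fam240a was joined to that from Ccdc12 to Prss50 in 11 and 29 counts (0.336, 0.151 to 0.692), to the stretch between Fam240a and the viewpoint bin in 5 and 20 (0.221, 0.0649 to 0.607) and, across the viewpoint, to Rtp3, Ltf and Ccrl2 in 5 and 16 (0.277, 0.0792 to 0.790). The region from Ccdc12 to Prss50 was joined to Rtp3, Ltf and Ccrl2 in 5 and 22 counts (0.201, 0.0595 to 0.544), to the stretch between Fam240a and the viewpoint bin in 6 and 20 (0.265, 0.0872 to 0.685) and to Lrrfip2 in 0 and 6, a call that was lost with each distinct pair taken once. Between the regions of Tmie to Fam240a and Lrrc2 there were 30 naive and 35 primed counts (0.758, 0.450 to 1.27). The stretch between Fam240a and the viewpoint bin and the region of Rtp3, Ltf and Ccrl2 were joined by 13 and 15 (0.767, 0.336 to 1.73). The calls follow in part from the shares of the single regions. The numbers under random pairing of the reporters include counts with both reporters in 1 region (524 naive and 246 primed in Lrrc2) and ignore distance. Most pairs of regions stood below 1 on this scale, and its intervals leave out the error of the random numbers. Relative to random pairing, Lrrc2 with the region from Ccdc12 to Prss50 stood at 0.523 (0.395 to 0.679) in naive and 0.213 (0.130 to 0.329) in primed cells, with intervals apart. For the region from Tmie to Fam240a with that from Ccdc12 to Prss50 the values were 0.601 (0.300 to 1.08) and 0.528 (0.354 to 0.758), and with Rtp3, Ltf and Ccrl2 0.293 (0.0951 to 0.684) and 0.270 (0.155 to 0.439), so that on this scale neither was higher in primed cells. The stretch between Fam240a and the viewpoint bin with the region from Tmie to Fam240a (0.322, 0.104 to 0.751, and 0.597, 0.365 to 0.923), Lrrc2 with Rtp3, Ltf and Ccrl2 (0.380, 0.269 to 0.522, and 0.593, 0.452 to 0.763), and the region from Ccdc12 to Prss50 with the stretch next to Fam240a (0.340, 0.125 to 0.740, and 0.634, 0.387 to 0.979) and with Rtp3, Ltf and Ccrl2 (0.258, 0.0838 to 0.602, and 0.395, 0.247 to 0.598) kept a higher primed value with overlapping intervals.

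The reporters of a count lay close together in most cases, with a median separation of 0.909 kb in naive and 1.85 kb in primed cells and an upper quartile of 34.0 and 69.6 kb. Counts with reporters over 50 kb apart made up 23.8% (21.6 to 26.0) of naive and 28.8% (26.4 to 31.3) of primed counts, a ratio of 0.826 (0.714 to 0.955). The interval included 1 with each distinct pair taken once (0.939, 0.805 to 1.10), with a threshold of 100 kb (0.882, 0.748 to 1.04) and with 1 more bin left out on each side of the viewpoint bin (0.855, 0.713 to 1.02). A reporter over 200 kb from the oligo was present in 35.8% of naive and 34.8% of primed counts (1.03, 0.907 to 1.16; each distinct pair once 1.16, 1.01 to 1.33). The direction depended on the threshold. The share was higher in primed cells for 100 kb (0.864, 0.776 to 0.962) and higher in naive cells for 500 kb (1.35, 1.08 to 1.69).

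For comparison, 3 other viewpoints captured from the same libraries were treated in the same way. The sides of the Nanog-Dppa3 locus viewpoint Dppa3-37kb kept their shares, with ratios of 0.975 (0.935 to 1.02) for both reporters upstream and 1.01 (0.980 to 1.04) for both downstream. At Lefty1-2 they were 1.01 (0.749 to 1.38) and 0.981 (0.833 to 1.16). The Sox2-SE viewpoint moved, with 1.37 (1.29 to 1.47) upstream and 0.667 (0.623 to 0.713) downstream. The intervals of the Tdgf1-Lrrc2-SE ratios, 0.665 (0.583 to 0.757) and 1.31 (1.18 to 1.46), do not overlap those of Dppa3-37kb or Sox2-SE. The upstream interval overlaps that of Lefty1-2, and the difference between viewpoints could not be tested without replicates. The local share was higher in naive cells at Dppa3-37kb (1.18, 1.15 to 1.20) and Sox2-SE (1.10, 1.07 to 1.13) as well, and at Lefty1-2 the interval included 1 (0.934, 0.834 to 1.05). Reporters over 50 kb apart also had a lower naive share at Dppa3-37kb (0.871, 0.834 to 0.909) and Sox2-SE (0.928, 0.863 to 0.998), while at Lefty1-2 the interval included 1 (1.11, 0.855 to 1.44).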

How the data were processed

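Tri-C libraries of naive and primed J1 cells, 3 biological replicates per state and 2 oligo pools, made up 12 samples. CapCruncher was run by the authors in its capture mode on mm10, reads with 2 or more reporters on the same chromosome were extracted, and the authors deposited counts of reporter fragment pairs as whole numbers without normalization, in 46 tables, 1 per viewpoint and state. How duplicate reads were treated is not given in the sources used here.

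Fragment midpoints were compared with the oligo start of the study's oligo list. The unit was a count with at least 1 reporter in a bin. Shares have exact Clopper-Pearson intervals of 95%, ratios an interval from the exact binomial split of the 2 states' counts, all for counting error alone. Reads with many reporters add several pairs each, and PCR copies of a molecule may be counted separately. Naive and primed totals of 3560 and 3349 counts set the precision. Bins and bin pairs with at least 20 counts in the 2 states together were compared. Python 3.11.15, numpy 2.4.6, scipy 1.17.1 and matplotlib 3.10.9 were used. The interval functions were tested on simulated counts drawn independently for each bin, as the intervals assume. Pairs from 1 read and PCR copies are not independent, so the intervals may be too narrow for these data, which was not tested. Genes are RefSeq genes of GRCm38.p6, the assembly of mm10, with strands from RefSeq promoters or GENCODE. All 3 DpnII sites in 5 RefSeq promoter windows of the locus fell at a fragment edge of the tables. The oligo matched NCBIM37 at 1 place, on chromosome 9.

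Named were Tdgf1, Lrrc2, the 3 next protein-coding genes on each side, a list of tissue-restricted genes, the bins and bin pairs with the most counts, the lowest ratio and the called bins, and the 10 fragment pairs with the highest counts. The members, lists and rules were chosen with earlier results of these data known. Some results of the locus, with the gene list that needs them, are not reported here. Alternatives were distinct pairs, other windows, bins, thresholds, minimums and denominators. Leaving out neighbouring fragments, the gene-bounded regions and the classes of distant pairs were added after the data were seen.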

Additional observations from a re-analysis of the deposited data

How the results depend on the processing

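No paired analysis was possible because each table pools the replicates of its state, and none of them could be left out. No called ratio changed its direction under any alternative run. Of 86 alternatives for 16 summary values, 64 stayed within the main interval (counts of calls within 1.5 times) and 22 moved. For single bins 173 of 181, for bin pairs 74 of 80 and for gene-bounded regions 22 of 25 stayed, and the cause of the moves was not tested. Both reporters upstream had 0.787 with 1 more bin left out on each side of the viewpoint bin and 0.564 in a window of 200 kb. Straddling counts over expected were 0.409 in naive and 0.368 in primed cells for distinct pairs, 0.226 and 0.268 with 1 more bin left out on each side, and 0.576 and 0.516 without neighbouring fragments. Reporters over 50 kb apart had a ratio of 0.629 in a window of 200 kb. A reporter over 200 kb away had 0.864 with a threshold of 100 kb, 1.35 with 500 kb and 1.23 with 1 more bin left out on each side. The Lrrc2 span had 1.82 per count of the whole table. Against 6 naive and 11 primed bins called, a minimum of 10 counts gave 10 and 17, distinct pairs 6 and 6, and reporters in place of counts 8 and 20. Against 4 and 4 bin pairs, 20 kb bins gave 2 and 3, bin edges moved by 5 kb gave 5 and 2, a minimum of 10 counts gave 4 and 8, distinct pairs 3 and 0, and leaving out neighbouring fragments 3 and 1. Ratios of bins with few counts have wide intervals at this depth.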
